A study of Mus musculus with 14 samples.

Results

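The 9 genes described here encode proteins that dampen signalling through the ERK kinases. They are the dual-specificity phosphatases Dusp4, Dusp5, Dusp6 and Dusp7, the Sprouty genes Spry1 and Spry2, the Sprouty-related genes Spred1 and Spred2, and Errfi1. They were chosen by name, with earlier results of these data known, and all 9 were present among the 25239 gene symbols of the count table. RNA was measured in mouse bone marrow-derived macrophages, which are macrophages grown from marrow precursors in culture. All cultures were grown for 7 to 10 days in DMEM with 10% fetal bovine serum, 5% horse serum and 20% medium conditioned by L929 cells, a fibroblast line that secretes the macrophage growth factor CSF1. Cells labelled KO came from mice with floxed Ezh2 alleles and LysM-Cre (Ezh2fl/fl;LysM-Cre+/-), in which the myeloid LysM promoter drives Cre. Cells labelled WT came from littermate control mice, whose own alleles are not given in the sources used here. For 24 h the cells were kept in complete DMEM (control) or in medium conditioned by Hepa1-6, a mouse hepatoma line (CM). The libraries numbered 4 for WT in control medium, 4 for WT in CM, 3 for KO in control medium and 3 for KO in CM. Age and sex of the mice, whether numbered libraries came from separate mice, and whether the CM also held L929 medium are not given in the sources used here. The p-values therefore reflect library-to-library spread only, which may be technical.

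The ERK pathway runs from growth factor receptors such as the CSF1 receptor through Ras and MEK to the kinases ERK1 and ERK2. Active ERK induces transcripts whose products switch the pathway off again, at several levels. DUSP4 and DUSP5 are nuclear phosphatases, DUSP6 and DUSP7 are cytoplasmic ones, and all of them remove phosphate from MAP kinases. Sprouty and SPRED proteins act upstream, on the steps near the receptor and Ras, and ERRFI1 (also called MIG6) binds and inhibits receptors of the EGF receptor family. In macrophages, CSF1 is a main signal for survival and growth and activates ERK.

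Library totals, in megacounts of exon counts, were 40.3 to 61.5 in 10 libraries and 80.4 to 85.8 in WT libraries 3 and 4 of both media. These WT libraries also stood apart in how counts spread over exons: of the 39 distinct exons of the 9 genes, the share of the gene's counts in 11 lay outside the range of all other libraries. The shares within a gene depend on each other, and the same count over all exons was not made. The labels name no batch. Ezh2, the targeted gene, in control medium was at 23.0 ± 2.89 CPM in WT and, in KO, at 18.6 ± 0.288 CPM (SD, n = 4 and 3; log2 difference -0.31 ± 0.10, SE; edgeR adjusted p = 0.0761), and at 35.7 ± 3.27 and 27.1 ± 2.22 CPM in CM (-0.40 ± 0.10, adjusted p = 0.0334). The call in CM was lost with WT libraries 1 and 2 only (adjusted p = 0.0536) and without any 1 of WT CM libraries 2, 3 and 4 or KO CM libraries 1, 2 and 3 (0.0560 to 0.122), and without KO control library 1 (0.0510). In control medium the difference was called by DESeq2 (adjusted p = 0.0328), against WT libraries 3 and 4 only (0.00053) and without WT control library 1 (0.0390) or 2 (0.0473). CPM values are counts scaled to the TMM-adjusted library total. Counts per base of 2 Ezh2 exons, as a percentage of its other exons, were 94.0 to 169.5 in WT and 2.1 to 31.7 in KO libraries. How these 2 exons were chosen is not recorded, so the difference is not used as a test of the labels. Macrophage markers such as Csf1r (4984 CPM in WT control) were high in every group. Their sum was 30140 to 35610 CPM in WT control and 21240 to 21930 CPM in KO control libraries, mainly from Lyz2, the locus that carries LysM-Cre (21890 and 10220 CPM). In CM the sum was 29270 to 32270 CPM in WT and 19120 to 19850 CPM in KO. Mean Adgre1 (3382 and 2098 CPM in WT, 3687 and 1900 CPM in KO), Csf1r, C1qa and Lyz2 were lower in CM. Means of Itgam (1213 and 2993 CPM in WT, 1142 and 3096 CPM in KO), Fcgr1 and Mertk were higher in CM. Cd68 was lower in WT and higher in KO. Summed neutrophil and precursor markers were at 0.760 to 1.52 CPM in WT control and 3.85 to 5.44 CPM in WT CM, mainly from Prtn3, and summed dendritic cell markers at 0.109 to 0.464 and 1.23 to 2.41 CPM, mainly from Cd209a. In KO the neutrophil sums were 0.964 to 2.49 and 3.17 to 5.06 CPM, and the dendritic cell sums overlapped between media (0.362 to 0.596 and 0.431 to 0.731 CPM). Within the neutrophil list S100a9 had lower means in CM (0.595 and 0.511 CPM in WT, 0.798 and 0.103 CPM in KO), as did S100a8 (0.534 and 0.415 CPM, 0.699 and 0.383 CPM). Mpo was at 0 in all control libraries and at most 0.0216 CPM in CM, and Flt3 was at 0 in CM. The summed fibroblast markers reached 1.06 CPM in 1 WT control library and at most 0.203 CPM in the others. Summed endothelial markers, mainly Kdr, were larger, at 16.62 to 18.67 CPM in WT control and 12.14 to 16.6 CPM in WT CM. In KO they were at 11.59 to 14.73 and 10.78 to 13.33 CPM. Summed hepatocyte or hepatoma markers, mainly Apoa2 and Afp, were at 4.368 to 5.42 and 4.505 to 6.669 CPM in WT. In KO these were at 5.954 to 7.418 and 5.479 to 6.295 CPM, and Alb was at 0 in every group. The part of these cells in the results was not tested, and in bulk RNA fewer cells of a type cannot be told apart from less RNA per cell.

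Scaled by exon length, so that genes can be compared, the 9 genes spanned a wide range in WT control medium. Spred1 (15.9 ± 1.72 CPM per kb of exon, SD, n = 4) and Dusp7 (14.7 ± 1.47) were highest and overlapped each other. Dusp6 (3.50 ± 0.514) and Dusp4 (3.09 ± 0.417) came next and also overlapped. Spred2 (1.40 ± 0.266), Errfi1 (1.39 ± 0.111), Spry2 (1.12 ± 0.283) and Dusp5 (1.07 ± 0.132) followed, each overlapping its neighbour. Spry1 was far below all of them at 0.0245 ± 0.0149 CPM per kb. In CM the pair Dusp7 (14.9 ± 0.856) and Spred1 (14.2 ± 1.07) stayed on top, with Dusp6 at 1.93 ± 0.394 and Spry1, still lowest, at 0.229 ± 0.0578.

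**Figure D1:**
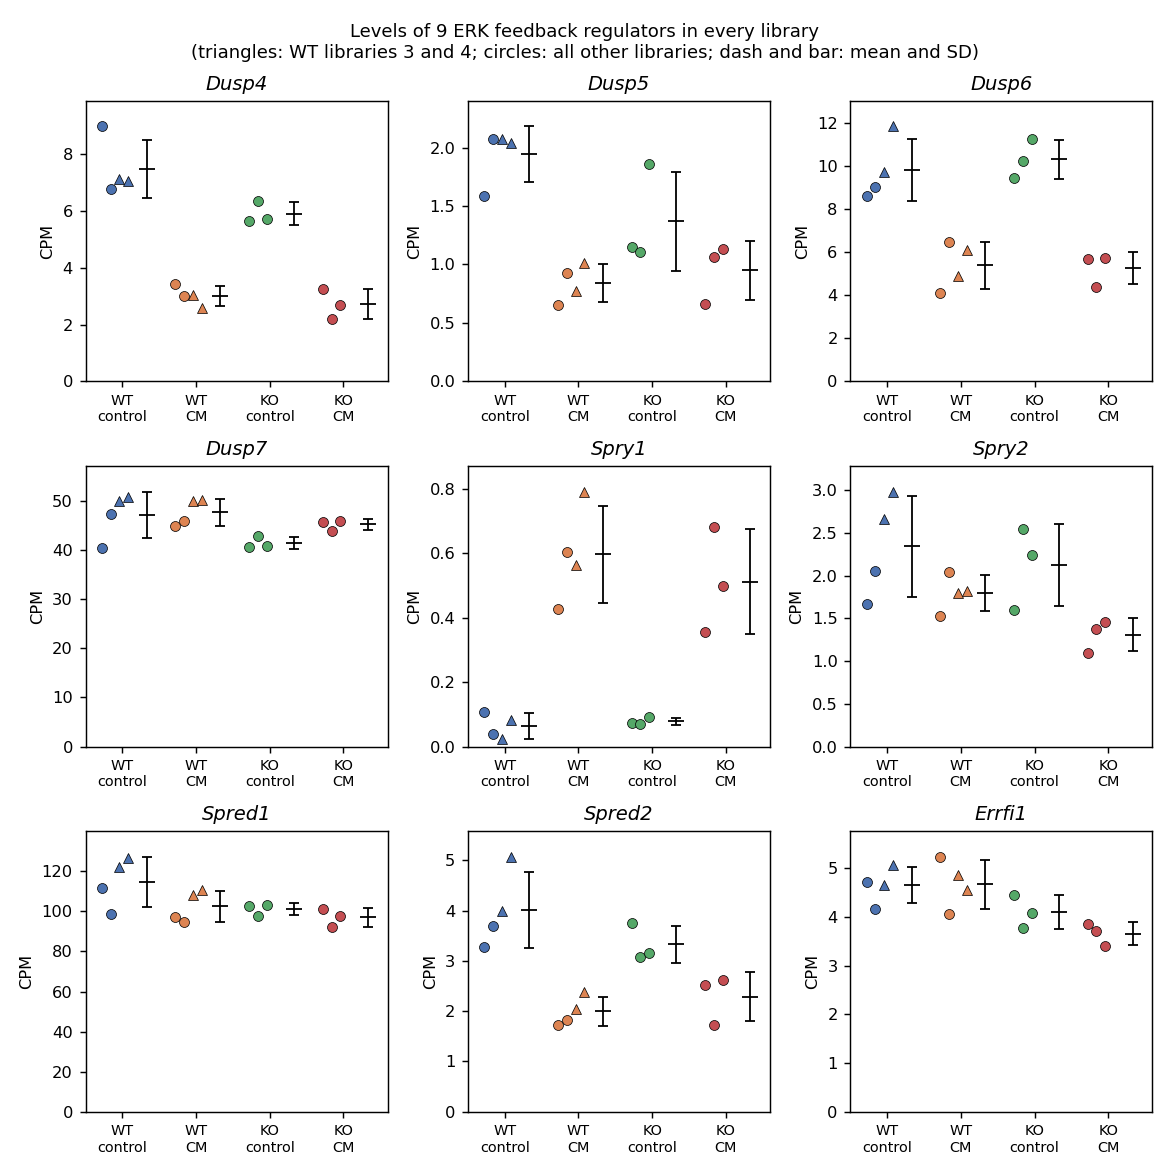
Level of each of the 9 genes in every library, in CPM, by genotype and medium (points are libraries, with triangles for WT libraries 3 and 4, and dash and bar are mean and SD). Dusp4, Dusp5, Dusp6 and Spred2 sit lower in CM than in control medium in WT, Spry1 sits higher, and the WT groups of Dusp7, Spred1 and Errfi1 overlap.

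In CM, 5 of the 9 genes passed the test in WT cells: Dusp4, Dusp5, Dusp6 and Spred2 fell and Spry1 rose. Calls rest on edgeR's quasi-likelihood test with a threshold of 0.05 on the adjusted p over all 13311 tested genes, of which 37.3% were called in this comparison (19.3% higher and 18% lower). CM in KO cells also gave 5 calls, with Dusp4, Dusp6, Spry2 and Spred2 lower and Spry1 higher, against 38.1% of all tested genes called (20% higher and 18.2% lower). Spry1 passed the filter on low counts through its CM libraries alone, since 0 control libraries reached the filter's 0.196 CPM, so its call was in part fixed by the filter, and among the other 8 genes 4 were lower and 0 higher in each genotype. The median log2 change of the 9 was -0.39 in WT and -0.50 in KO, without Spry1 -0.63 and -0.52, and that of all tested genes -0.006 and -0.012.

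The sequences just before the starts of 4 of the genes that moved are shown so that their differences can be seen. Promoters from RefSeq (GRCm38.p6) matched 8 of the 9 genes, and each line gives the 250 bases before the annotated start, 5′ to 3′ on the gene's strand. Capitals mark the matches to 6 motifs: SP1 (GGGCGG), CRE (TGACGTCA), ETS (CCGGAAGT), AP-1 (TGANTCA), the E-box (CACGTG) and the CArG box, which serum response factor binds.
Dusp5, chr19:53528895-53529144, plus strand: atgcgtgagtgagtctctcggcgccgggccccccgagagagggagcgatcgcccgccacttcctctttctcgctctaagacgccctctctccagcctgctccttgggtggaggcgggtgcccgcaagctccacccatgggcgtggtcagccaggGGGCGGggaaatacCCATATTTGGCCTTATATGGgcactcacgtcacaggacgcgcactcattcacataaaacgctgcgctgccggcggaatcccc
Dusp6, chr10:99262981-99263230, plus strand: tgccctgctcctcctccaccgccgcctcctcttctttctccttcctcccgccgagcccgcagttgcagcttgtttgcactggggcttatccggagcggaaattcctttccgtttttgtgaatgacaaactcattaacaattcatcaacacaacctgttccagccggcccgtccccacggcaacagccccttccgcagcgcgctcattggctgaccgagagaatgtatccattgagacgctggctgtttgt
Spred2, chr11:19924192-19924441, plus strand: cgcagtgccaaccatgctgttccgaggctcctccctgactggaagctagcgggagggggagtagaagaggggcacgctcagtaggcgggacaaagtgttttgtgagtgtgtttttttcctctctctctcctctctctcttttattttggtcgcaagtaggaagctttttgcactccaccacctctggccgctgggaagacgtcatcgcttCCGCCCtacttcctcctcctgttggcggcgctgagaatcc
Spry1, chr3:37639697-37639946, plus strand: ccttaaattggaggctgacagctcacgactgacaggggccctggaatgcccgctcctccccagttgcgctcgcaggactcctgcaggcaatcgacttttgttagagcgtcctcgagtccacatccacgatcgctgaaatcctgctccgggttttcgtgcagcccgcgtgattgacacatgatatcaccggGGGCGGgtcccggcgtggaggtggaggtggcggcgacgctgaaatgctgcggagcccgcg
Both strands were searched. The Dusp5 window held 2 adjacent CArG boxes, CCATATTTGG at -82 and CCTTATATGG at -72 from the start, a motif found in 1.47% of 32851 promoter windows of this length and in 0 of the other 8 windows of these genes. SP1 matches stood in 5 of the 9 windows (32.7% of all windows) and a CRE in the second Errfi1 window (1.55%), whereas ETS (2.88%), AP-1 (6.75%) and E-box (6.02%) letters were in 0. The 5 letters TGACG, part of the CRE and not in capitals, were in a Dusp5, an Errfi1 and the Spred2 window (17.8% of all). The Dusp6 window, whose gene also fell, matched none of these motifs. In RefSeq these genes lie at chr19:53529145-53541809 (Dusp5), chr10:99263231-99267489 (Dusp6), chr11:19924442-20024026 (Spred2) and chr3:37639947-37644599 (Spry1).

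Of the nuclear phosphatases, Dusp4 fell in both genotypes. It was at 8.99, 6.79, 7.13 and 7.05 CPM in WT control libraries 1 to 4 and at 3.44, 3.0, 3.05 and 2.58 CPM in WT CM libraries 1 to 4. Every CM library was below every control library (16.2% of all tested genes were lower without overlap in WT), and the change was -1.32 ± 0.13 on the log2 scale (SE, edgeR adjusted p = 1.03e-06). In KO cells it was at 5.66, 6.37 and 5.71 CPM in control medium and 3.25, 2.19 and 2.69 CPM in CM, again without overlap (27.1% of all genes), a change of -1.13 ± 0.16 (adjusted p = 3.28e-05). All 4 Dusp4 exons were lower in CM in WT, with log2 ratios of mean CPM from -1.53 to -1.11.

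Dusp5, an ERK-specific nuclear phosphatase, was lower in CM in WT cells. It was at 1.59, 2.07, 2.08 and 2.04 CPM in WT control libraries and at 0.652, 0.927, 0.775 and 1.01 CPM in WT CM libraries, without overlap. The change was -1.20 ± 0.22 (adjusted p = 0.000428). In KO cells the libraries were at 1.15, 1.11 and 1.86 CPM in control medium and 0.660, 1.06 and 1.13 CPM in CM, with overlap, and the change of -0.50 ± 0.26 did not pass (adjusted p = 0.148, 95% interval -1.08 to 0.08). The difference between the genotypes in this change, 0.70 ± 0.34, did not pass either (adjusted p = 0.663), so the genotypes were not shown to differ. The GENCODE annotation of this build lists a Dusp5 antisense gene on the opposite strand, and the counting's strand setting is not given in the sources used here, so their reads cannot be told apart; the same holds for Spry1 and an overlapping gene.

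Dusp6, the cytoplasmic ERK phosphatase, fell in both genotypes. WT control libraries were at 8.6, 9.04, 9.72 and 11.8 CPM and WT CM libraries at 4.09, 6.49, 4.89 and 6.08 CPM, which do not overlap. The log2 change was -0.86 ± 0.15 (adjusted p = 0.000198) in WT and -0.97 ± 0.17 (adjusted p = 0.000303) in KO, where the means were 10.3 ± 0.917 and 5.26 ± 0.763 CPM. All 3 Dusp6 exons were lower in both genotypes without overlap. Exons of a gene can share reads, so these are not separate observations, for this gene or the others. How many of all exons were lower without overlap was not counted. Over all tested genes the share was 16.2% in WT and 27.1% in KO.

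Dusp7, the other cytoplasmic phosphatase and the most abundant of the 4 per kb, was at 47.3 ± 4.73 CPM in WT control medium and 47.8 ± 2.75 CPM in CM. The log2 change of 0.02 ± 0.07 did not pass (adjusted p = 0.892, 95% interval -0.14 to 0.17). In KO cells all CM libraries (44.0 to 46.1 CPM) were above all control libraries (40.7 to 42.9 CPM), as were 27.5% of all tested genes, but the change of 0.12 ± 0.08 did not pass (adjusted p = 0.240).

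The makeup of the 4 phosphatase transcripts shifted. Dusp7 made up 65.7% ± 2.40 of the summed Dusp4 to Dusp7 level per kb in WT control medium and 80.4% ± 1.78 in CM (SD, n = 4). In KO cells it made up 65.3% ± 1.81 and 80.1% ± 1.47 (n = 3). The nuclear pair Dusp4 and Dusp5 went from 18.7% ± 2.64 to 9.25% ± 0.849 in WT and from 16.1% ± 0.598 to 9.30% ± 0.354 in KO. The ranges in the 2 media do not overlap in either genotype for either share. The summed level was 22.4 ± 1.66 and 18.5 ± 0.966 CPM per kb in WT, and 19.8 ± 0.683 and 17.6 ± 0.766 in KO. These shares come from the levels above and were not tested separately.

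**Figure D2:**
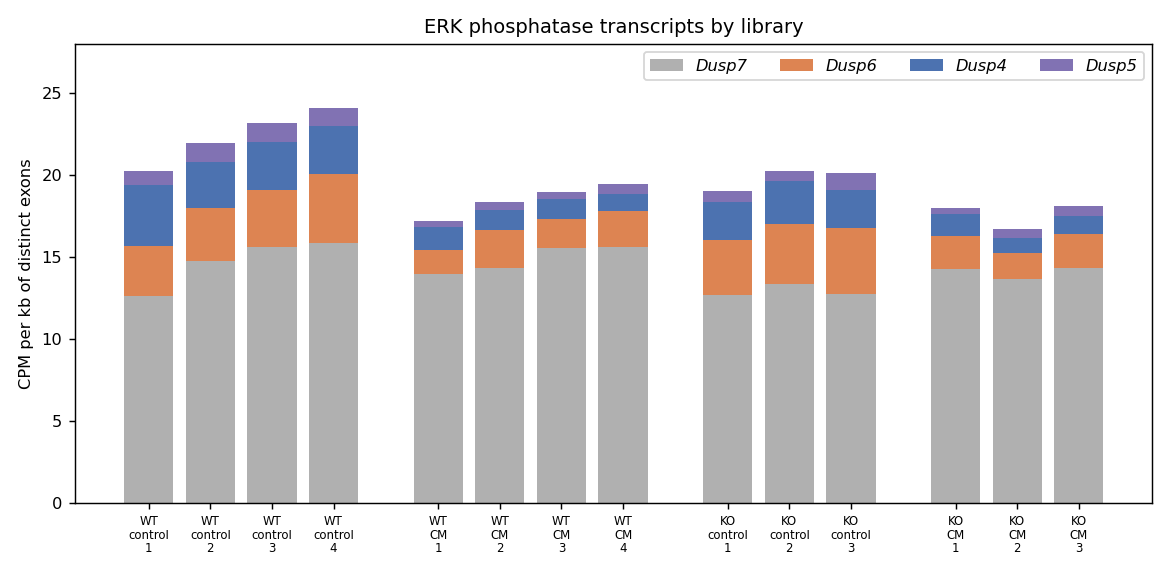
Stacked levels of Dusp7, Dusp6, Dusp4 and Dusp5 in CPM per kb of exon, 1 bar for each library. The Dusp7 part stays similar between media while the other parts are shorter in CM, and the WT bars are 20.3 to 24.1 in control medium and 17.2 to 19.4 in CM.

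Spry1, a Sprouty that inhibits the pathway upstream of ERK, rose from very low levels. WT control libraries held 5, 2, 2 and 7 counts and WT CM libraries 17, 28, 43 and 65, which are 0.0243 to 0.109 and 0.426 to 0.792 CPM, without overlap (17.6% of all tested genes were higher without overlap in WT). The log2 change was 3.25 ± 0.40 (adjusted p = 8.89e-06). KO control libraries held 4 counts each and KO CM libraries 14, 32 and 30, and the change was 2.70 ± 0.47 (adjusted p = 0.000293). Spry1 passed the filter through its CM libraries alone, so both calls were in part fixed by it. These p-values are therefore not used as support for the rise. Even in CM, Spry1 made up 20.8% ± 3.45 of the summed Spry1 and Spry2 level per kb in WT and 23.4% ± 4.18 in KO.

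Spry2 was at 1.67, 2.05, 2.66 and 2.99 CPM in WT control libraries 1 to 4 and at 1.53, 2.05, 1.80 and 1.82 CPM in WT CM libraries, so the groups overlap. The change of -0.39 ± 0.19 did not pass (adjusted p = 0.130, 95% interval -0.82 to 0.04). WT libraries 1 and 2 were the lower control libraries and 3 and 4 the higher, and with WT libraries 3 and 4 only (36.3% of all genes called) the change was -0.64 (adjusted p = 0.0310), and without WT control library 1 it was -0.52 (adjusted p = 0.0426). With WT libraries 1 and 2 only it was -0.060 (adjusted p = 0.894), and without WT control library 4 it was -0.25 (adjusted p = 0.369). In KO cells Spry2 was at 1.60, 2.54 and 2.24 CPM in control medium and 1.09, 1.38 and 1.46 CPM in CM, a fall of 0.69 ± 0.23 on the log2 scale (adjusted p = 0.0296). This call was lost without KO control library 2 (adjusted p = 0.132), KO control library 3 (0.0773), KO CM library 1 (0.106) or KO CM library 2 (0.0569).

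Of the SPREDs, which restrain Ras through neurofibromin, Spred2 fell in CM. It was at 3.28, 3.70, 4.0 and 5.07 CPM in WT control libraries and 1.73, 1.83, 2.05 and 2.38 CPM in WT CM libraries, without overlap. The change was -1.0 ± 0.17 (adjusted p = 0.000186), and all 6 Spred2 exons were lower. KO control libraries were at 3.75, 3.09 and 3.15 CPM and KO CM libraries at 2.51, 1.72 and 2.62 CPM, a change of -0.54 ± 0.20 (adjusted p = 0.0399). In KO cells 5 of the 6 exons were lower. The KO call was lost without any 1 of KO control libraries 1, 2 and 3 or KO CM libraries 1 and 2 (adjusted p = 0.143, 0.0555, 0.0607, 0.0540 and 0.175), with every gene with a count kept (0.0520) and with the most-counted exon only (0.134).

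Spred1 was the most abundant of the 9 per kb in WT control medium and differed little between media. Its level was 114.8 ± 12.5 CPM in WT control medium and 102.6 ± 7.78 CPM in CM, and the change of -0.16 ± 0.07 did not pass (adjusted p = 0.101). With the replicate number as a block the change was -0.16 (adjusted p = 0.00264), which passed. It also passed with WT libraries 3 and 4 as a factor (0.00441), with these libraries only (0.0184), with library totals alone (-0.25, 0.0125), with the most-counted exon (0.0139) and without WT control library 2 (-0.23, 0.0123). In KO cells the change was -0.06 ± 0.09 (adjusted p = 0.612). Spred2 made up 8.08% ± 1.02 of the summed SPRED level per kb in WT control medium and 4.66% ± 0.352 in CM.

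Errfi1, the receptor inhibitor, was at 4.65 ± 0.371 CPM in WT control medium and 4.68 ± 0.501 CPM in CM, with a change of 0.005 ± 0.11 that did not pass (adjusted p = 0.980, 95% interval -0.23 to 0.24). In KO cells the levels were 4.10 ± 0.344 and 3.66 ± 0.232 CPM (-0.17 ± 0.12, adjusted p = 0.325).

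**Figure D3:**
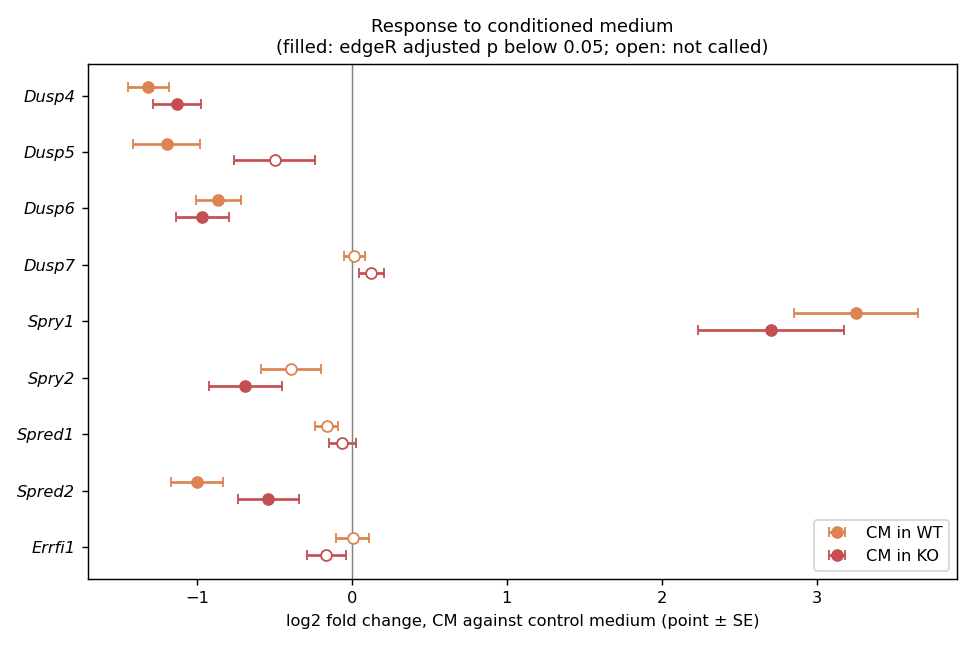
Log2 change in CM for each gene in WT (4 against 4 libraries) and KO cells (3 against 3), with standard errors as bars and filled points for called changes. Dusp4, Dusp6 and Spred2 lie below 0 and Spry1 above 0 in both genotypes, and the WT and KO values of Dusp5 are -1.20 and -0.50.

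Between genotypes, 0 of the 9 genes were called, in control medium or in CM, by edgeR or by DESeq2. Among all tested genes edgeR called 5.32% in control medium (2.82% higher and 2.5% lower in KO) and 4.59% in CM (3.1% and 1.49%). At an unadjusted p below 0.05, 4 of the 9 passed in control medium (25.6% of all genes) and 1 in CM (23.4%). The 4 were Dusp4 (-0.34 ± 0.14, adjusted p = 0.148), Dusp5 (-0.52 ± 0.23, adjusted p = 0.180), Dusp7 (-0.19 ± 0.07, adjusted p = 0.134) and Spred1 (-0.18 ± 0.08, adjusted p = 0.175), all with lower values in KO. Dusp4 was without overlap there, with 6.79 to 8.99 CPM in WT and 5.66 to 6.37 CPM in KO, and 10.7% of all genes were lower in KO without overlap. The 1 in CM was Errfi1, at 5.24, 4.05, 4.86 and 4.56 CPM in WT and 3.86, 3.72 and 3.40 CPM in KO, which do not overlap (-0.36 ± 0.12, adjusted p = 0.0970). Spry2 in CM was also without overlap, with 1.53 to 2.05 CPM in WT and 1.09 to 1.46 CPM in KO (-0.45 ± 0.22, adjusted p = 0.235), and 9.59% of all genes were lower in KO without overlap in CM. The difference between the changes in CM of the 2 genotypes gave 0 calls among the 9 and 0 among all 13311 tested genes. At an unadjusted p below 0.05 it gave 0 of the 9 and 7.89% of all genes, and DESeq2 called 80 genes, 0 of them among the 9.

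These comparisons depended on which WT libraries were used. WT libraries 3 and 4 were both above libraries 1 and 2 for Dusp6, Dusp7, Spry2, Spred1 and Spred2 in control medium (33.1% of all genes) and for Dusp7, Spred1 and Spred2 in CM (31.3%). Against WT libraries 3 and 4 alone, an alternative chosen after seeing the data, Dusp7 (-0.28, adjusted p = 0.00085) and Spred1 (-0.30, adjusted p = 0.000438) were called lower in KO in control medium, with 38.9% of all genes called. In CM, Dusp7 (-0.15, adjusted p = 0.0447), Spred1 (-0.17, adjusted p = 0.0180) and Errfi1 (-0.37, adjusted p = 0.0372) were called, with 35.5% of all genes. Against WT libraries 1 and 2 alone 0 of the 9 were called, with 3.85% and 3.58% of all genes, and the values of Dusp7 and Spred1 were -0.08 and -0.05 in control medium and 0.003 and 0.02 in CM. Without WT control library 1 Dusp7 was called in control medium (-0.25, adjusted p = 0.0341), and without WT control library 2 Spred1 was (-0.25, adjusted p = 0.0342).

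**Figure D4:**
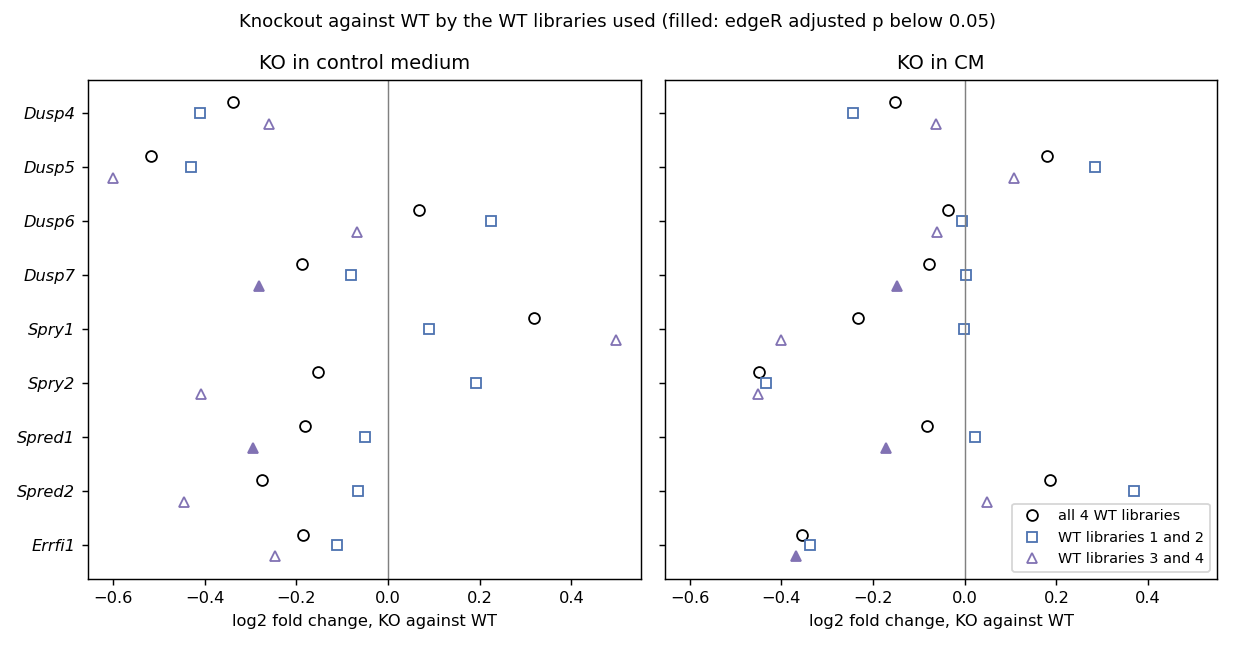
Log2 difference of KO from WT for each gene in control medium and in CM, against all WT libraries, WT libraries 1 and 2, or WT libraries 3 and 4, filled where called. For Dusp7 and Spred1 in control medium the values run from -0.08 and -0.05 against libraries 1 and 2 to -0.28 and -0.30 against libraries 3 and 4.

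Other genes of the pathway are given from 6 lists, by the same call rule, under which 37.3% of all tested genes were called in CM in WT and 38.1% in KO. The other 6 MAP kinase phosphatases were all called in CM, 5 lower and 1 higher, in WT and again in KO. This list is not limited to phosphatases of ERK. Dusp1, an immediate-early nuclear phosphatase, fell by 1.33 ± 0.12 on the log2 scale in WT (adjusted p = 3.00e-07), Dusp8 fell by 1.68 ± 0.20, Dusp16 fell by 0.32 ± 0.07, and Dusp10, which acts on JNK and p38, rose by 1.12 ± 0.23. Of 16 tested ERK-responsive transcripts (18 listed), 2 were higher and 5 lower in WT and 5 higher and 5 lower in KO. In WT the count of both directions together was close to the 37.3% of all genes, so nothing is read from it. Epha2, called higher, averaged 0.0530 CPM in WT control and 0.0744 CPM in KO control, below the filter's 0.196 CPM. Its call was in part fixed by the filter, as for Spry1. In WT, Fos changed by -3.08 ± 0.14, Ccnd1 (cyclin D1) by -1.62 ± 0.13, the ETS factor Etv5 by -1.10 ± 0.11 and Ier3 by 1.45 ± 0.08. In the core cascade 7 of 21 genes were higher and 2 lower in each genotype. Both directions together are close to the share of all genes, so nothing is read from that count. By direction it is not close to the 19.3% higher and 18% lower of all genes in WT, which was not tested. Called genes of the cascade in WT included the scaffold Ksr1 (1.30 ± 0.10 in WT), Lamtor3 (0.56 ± 0.05) and the kinase Rps6ka3 (0.52 ± 0.06).

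Receptors and ligands moved in both directions, beside the 37.3% and 38.1% of all tested genes called in WT and KO. Of 15 tested receptors (17 listed), 4 were higher and 7 lower in WT and 4 and 8 in KO. Tyro3 averaged 0.0239 CPM in WT control and 0.0741 CPM in KO control, below the filter's 0.196 CPM, and Flt3 was at 0 in CM. Each passed the filter through the other medium, so their calls were in part fixed by it. In WT the CSF1 receptor Csf1r changed by -0.45 ± 0.06, Csf2rb by 0.65 ± 0.04, Fgfr1 by 0.66 ± 0.06 and Axl by -0.46 ± 0.06. Of 8 tested ligands (13 listed), 4 were higher and 4 lower in each genotype, with Pdgfb at -1.67 ± 0.06, Hgf at -0.45 ± 0.05, Vegfa at 0.60 ± 0.07 and Nrg1 at 4.98 ± 0.35 in WT. Nrg1 went from 0.247 ± 0.168 to 8.42 ± 1.84 CPM. Of 14 tested other negative regulators (15 listed), 2 were higher and 4 lower in WT and 2 and 3 in KO, close to that share, with Dok2 at 0.50 ± 0.07, Pebp1 at 0.25 ± 0.05, Sh2b3 at -0.34 ± 0.08 and Spry3 at -0.82 ± 0.12 in WT. In KO the Spry3 change of -0.32 ± 0.13 did not pass (edgeR adjusted p = 0.0636), but passed in 3 of 25 alternatives. The Pebp1 call in KO (adjusted p = 0.0184) was lost in 4 of 25.

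**Figure D5:**
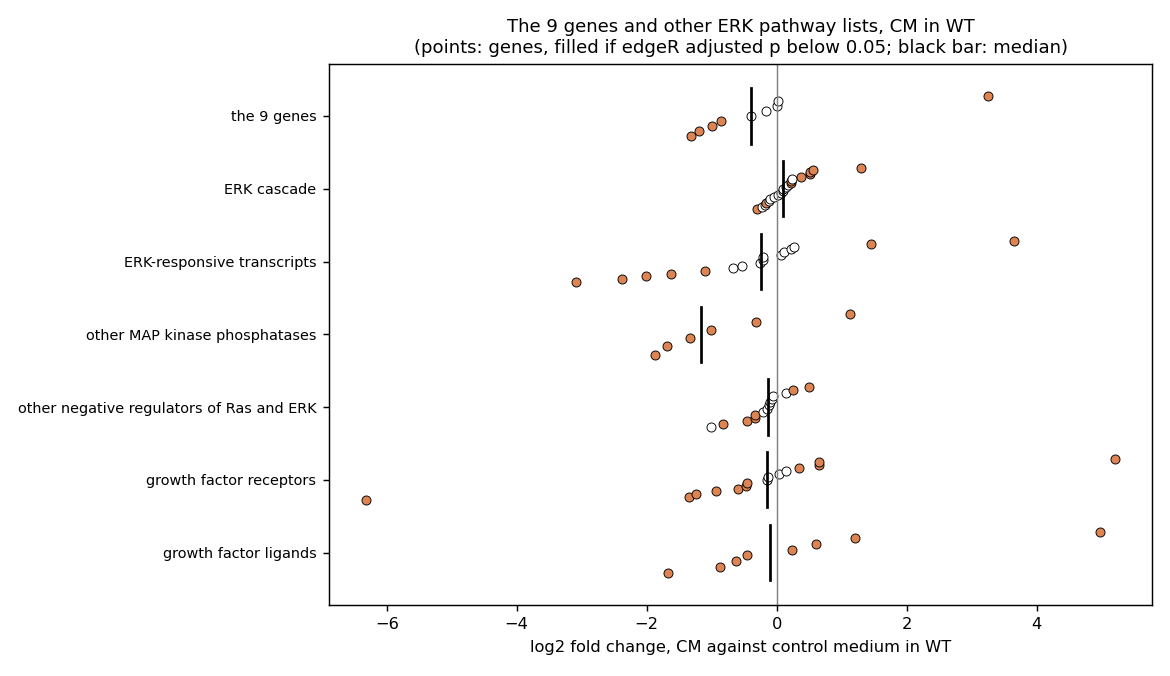
Log2 change in CM in WT of each tested gene of the lists (filled where called), with list medians as black bars. The other MAP kinase phosphatases have a median of -1.17 and the core cascade one of 0.10, and that of all tested genes is -0.006.

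Between genotypes, calls in control medium were 2 higher and 2 lower of 15 receptors, 0 and 2 of 8 ligands, 1 and 2 of 14 other negative regulators and 0 and 1 of 16 ERK-responsive transcripts. In CM they were 0 and 1, 1 and 2, 1 and 0, and 0 and 0. Over all tested genes 5.32% and 4.59% were called. Spry3, another Sprouty, was higher in KO in both media, in control medium at 2.12 ± 0.0647 CPM in WT against 3.48 ± 0.147 CPM in KO (0.71 ± 0.12, adjusted p = 0.00383) and at 1.20 ± 0.0980 and 2.80 ± 0.257 CPM in CM (1.22 ± 0.12, adjusted p = 9.77e-05). Fgfr1 was lower in KO in both media (-0.56 ± 0.06 and -0.40 ± 0.06, adjusted p = 0.00017 and 0.00279), as was Csf1 (-0.75 ± 0.10 and -0.58 ± 0.10, adjusted p = 0.000487 and 0.00337), whose CM call was lost with the most-counted exon (adjusted p = 0.0867). Vegfa was lower in both media too (-0.52 ± 0.08 and -0.37 ± 0.08, adjusted p = 0.00216 and 0.0166). In control medium Axl (0.35 ± 0.07, adjusted p = 0.00917) and Csf2ra (0.40 ± 0.07, adjusted p = 0.00704) were higher in KO, and Kit (-1.42 ± 0.28, adjusted p = 0.0101) and Cbl (-0.27 ± 0.07, adjusted p = 0.0418) were lower. Csf2ra, Kit and Cbl are named because they were called, after their values were seen. Alternatives were not run for the genotype differences of these 3 genes, Axl or Vegfa. Hgf was higher in KO in CM (0.26 ± 0.05, adjusted p = 0.0156), which was lost with the most-counted exon (0.0915) and without KO CM library 1 (0.0648) or 3 (0.0538). Ets2 (-0.47 ± 0.12, adjusted p = 0.0373) and the ubiquitin ligase gene Cblb (-0.61 ± 0.14, adjusted p = 0.0205) were lower in KO in control medium, and each call was lost without any 1 of WT control libraries 3 and 4 or KO control libraries 1, 2 and 3 (adjusted p for Cblb without KO control library 1, 0.0575, and for Ets2 without it, 0.141). The Ets2 call was also lost with library totals alone (0.0509), only the compared groups (0.0905), the most-counted exon (0.132), WT libraries 1 and 2 only (0.169) and without KO CM library 1 (0.0545) or 2 (0.0502), and the Cblb call with only the compared groups (0.0514). Not called in either medium with all libraries and edgeR were Grb2 (-0.13 ± 0.05 in CM), Junb (-0.38 ± 0.15), Dusp1 (-0.17 ± 0.14), Dusp16 (0.17 ± 0.07) and Igf1r (-0.37 ± 0.11). Igf1r in CM was called by DESeq2 (adjusted p = 0.0276), with the most-counted exon (0.0463) and against WT libraries 3 and 4 only (0.00934), and Junb was called against those libraries in control medium (-0.32, adjusted p = 0.00108) and in CM (-0.60, adjusted p = 9.90e-06). Of the core cascade 0 of 21 genes were called in either medium, and of the other MAP kinase phosphatases 0 of 6, beside 5.32% and 4.59% of all tested genes in control medium and CM, so nothing is read from these counts.

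The genes whose pattern over the 14 libraries lay closest to each of the 8 genes whose mean reached 1 CPM were found among 9616 genes, by the root mean square difference of gene-centred log2 CPM. This is a description, since all libraries and group differences enter it. For Dusp4 it was the chemokine receptor Cxcr4 (0.18), at 177.5 CPM in WT control medium and 71.9 CPM in WT CM. Dusp6 was closest to Pacc1 (0.14), Dusp5 to Lrrc49 (0.23), Spry2 to R74862 (0.19) and Spred2 to the insulin receptor substrate Irs2 (0.16). Spred1 was closest to the RNA-binding protein gene Celf2 (0.041), Dusp7 to Lactb2 (0.050) and Errfi1 to Zbtb11 (0.088).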

How the data were processed

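Raw counts per exon of transcript models were deposited by the authors for the 14 libraries, and the submitters' processing notes name HISAT2 and the build mm10; the version, counting tool, annotation and strand setting are not given in the sources used here. Libraries were stranded mRNA preparations read as 150 bp pairs, per the labels' protocols. Of 427386 exon entries, 196941 repeated another entry of the same gene and were removed, and the 230445 distinct exons were summed per gene. A fragment over several exons can be counted in each. Levels per kb divide CPM by the distinct exon length. Distinct exons may still overlap: Spred1 exons of 159 and 926 bp held near-equal counts in every library (389 and 390 in WT control library 1). An Errfi1 exon of 310 bp held 0 counts. Such exons enter the summed counts or lengths, so levels per kb and the shares taken from them are approximate.

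All genes were fitted with edgeR 4.0.16 in R 4.3.3 (TMM, filterByExpr with a minimum count of 10 and total of 15, quasi-likelihood F test, 1 fit of 4 group means over 14 libraries), with 13311 genes tested. P-values were adjusted by Benjamini-Hochberg over all of them in each of 5 comparisons. SE is the log2 change divided by the root of F. The 95% intervals use this SE and a t distribution with 10 degrees of freedom. They are somewhat wider than the F test implies, so interval and p-value need not match exactly. DESeq2 1.42.0 was an alternative, beside other scalings, filters, countings, library sets, a replicate block and leaving out each library. The code was tested on simulated data.

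The members, lists and tests were chosen with earlier results of these data known. Named from each list are up to 4 genes with the smallest p for CM in WT and up to 2 for KO in CM, with a mean of 1 CPM or more; Cxcr4 and the like follow from the rule on nearest genes. One gene that the rule names is not reported here. Replicate numbers come from the labels. Deviations of same-numbered WT control and CM libraries correlated at 0.552, 0.513, 0.672 and 0.677, so by the rule used (every pair above 0.1) numbers were taken to pair them. The main fit, which gave the SEs and p-values of the calls, did not use this pairing, and only the replicate block did. Differently numbered libraries correlated about as much within libraries 1 and 2 (0.488 and 0.531) and within 3 and 4 (0.631 and 0.520), so the pattern also follows that split. KO pairs correlated at -0.007, -0.107 and 0.047 and were not taken as paired. The replicate block nevertheless used the KO numbers too, for the changes in CM and the interaction. For KO against WT it matched all libraries of the same number. Same-numbered WT and KO libraries correlated at -0.144, 0.243 and -0.006 in control medium and -0.001, -0.038 and -0.216 in CM. The block results for KO and for the interaction therefore rest on numbers that showed no such pairing.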

Additional observations from a re-analysis of the deposited data

Results flagged for a closer look

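Of 78 groups of 4 libraries, taken over the 9 genes and 30 named pathway genes, 5 had 1 library far from the other 3 (its gap over the range was past Dixon's critical value), and chance gives about 1 in 20. WT control library 1 was the high one for Dusp4, at 8.99 CPM, and the low one for Dusp5, at 1.59 CPM. The calls of both genes in CM in WT held without it. WT CM library 3 was low for Ksr1, at 17.1 CPM, WT control library 4 was apart for Dusp16, at 11.9 CPM, and WT CM library 1 was apart for Spry3, at 1.05 CPM.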

How the results depend on the processing

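The 5 calls of CM in WT among the 9 genes held under every alternative run, except that Spry1 was not tested with the filter at a mean of 1 CPM. Except where every gene with a count was kept, the Spry1 call was in part fixed by the filter in these alternatives too. In CM in KO 3 were left at an adjusted p of 0.01, and 3 to 5 when 1 library was left out. KO in control medium gave 2 against WT libraries 3 and 4 only and 0 to 1 with 1 library left out; KO in CM gave 3 against those libraries. Over all genes, KO in control medium had 708 calls, 1469 with DESeq2, 283 with only the compared groups, 174 at 0.01, 384 with the most-counted exon, 5246 against WT libraries 3 and 4, and 224 to 1769 with 1 library left out. KO in CM had 611, and 1206 with DESeq2, 173 at 0.01, 923 with WT libraries 3 and 4 as a factor, 4791 against those only, and 217 to 721 with 1 library left out. The interaction had 0, and 80 with DESeq2, 205 with the replicate block, 164 with the factor, 11 with WT libraries 1 and 2, 54 with 3 and 4, and 0 to 2 with 1 library left out. The cause of these changes was not tested. With library totals alone the higher and lower calls were 1957 and 3501 for CM in WT (2570 and 2390 with TMM), 1941 and 3624 for CM in KO (2659 and 2418), and 605 and 182 for KO in control medium (375 and 333), and the median change of CM in KO was -0.12.

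Values near 0 changed sign. Dusp7 in CM in WT was -0.068 with library totals and -0.0082 in WT libraries 3 and 4, and -0.051 to 0.053 with 1 library left out. Errfi1 there was -0.079 with library totals, -0.00056 with the 1 CPM filter, -0.0028 with DESeq2, -0.0018 with the most-counted exon, -0.045 in WT libraries 3 and 4, and -0.053 to 0.064 with 1 left out. For KO in control medium, Dusp6 was -0.067 against WT libraries 3 and 4 and -0.00029 to 0.17 with 1 left out, and Spry2 0.028 with the factor, 0.19 against WT libraries 1 and 2 and -0.30 to 0.020 with 1 left out. For KO in CM, Dusp6 was 0.056 with the replicate block and 0.055 with the factor, and -0.14 to 0.081 with 1 left out, Dusp7 0.010 and 0.0026, and Spred1 0.030 and 0.023, with the factor and against WT libraries 1 and 2. For KO against WT the factor sets the WT level to that of WT libraries 1 and 2, with a shift for libraries 3 and 4 shared by both media. It is therefore not a separate check from the comparison against WT libraries 1 and 2. The Dusp6 interaction was 0.0062 against WT libraries 3 and 4 and -0.21 to 0.016 with 1 left out. Among named pathway genes in KO in control medium, Grb2 was 0.031 with library totals and 0.029 against WT libraries 1 and 2 (-0.049 to 0.00090 with 1 left out), Junb 0.0079 with the block, 0.17 with the factor and 0.17 against WT libraries 1 and 2, Dusp1 -0.11 with the most-counted exon and -0.15 against WT libraries 3 and 4 (-0.056 to 0.081 with 1 left out), and Igf1r 0.029 with the factor and 0.11 against WT libraries 1 and 2 (-0.14 to 0.0040 with 1 left out). Apart from Spred1 in CM in WT, the replicate block changed no call of the 9 genes. With 2 to 65 counts in WT libraries, Spry1 has the least depth of the 9.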
